A study of Mus musculus with 2 samples.

Results

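Glutathione transferases were compared between BMSC-Adipo and BMSC-Osteo, clonal murine bone marrow stromal cell lines that differentiate into adipocytes and osteoblasts, respectively. The members were 10 genes of the family, and every probe set that the array annotation assigns to them was taken, which gave 16 of 45101 probe sets and 10 of the 20706 genes with a probe set of their own. Each line was hybridised to 1 Affymetrix expression array that held pooled RNA from 3 cultures grown in basal medium with 12% FBS as the labels give it, where the study's methods state a lower share of FBS for the expansion of both lines. Both lines immortalized spontaneously, come from a C57BL/6 background and carry the same genotype, given as Beta-actin-GFP+ ApoE(-/-), so a GFP transgene and an ApoE-null state are shared by both. The labels also name them mMSC-Adipo and mMSC-Bone. Each is a single clone, and adipocyte or osteoblast commitment cannot be told apart from the clone. With 1 array a line, neither an error nor a p-value could be had, there is no replicate check, and precision is limited by the number of arrays. Values are log2 levels, a difference is the level in BMSC-Adipo minus that in BMSC-Osteo, and a difference of 1 is 2-fold. Counts use a 2-fold size rule, without a test, among the 14497 genes whose mean over both arrays lay at or above the 30th percentile, a log2 level of 4.20.

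Glutathione transferases join the tripeptide glutathione to reactive, mostly fat-soluble compounds, which makes them easier to export and less harmful. Some members also reduce lipid peroxides with glutathione, and others take part in making leukotrienes. The family has a membrane-bound branch, called MAPEG, and a cytosolic branch whose classes are named alpha, mu, pi, theta and omega. Several of these genes are induced through the transcription factor NRF2, which binds antioxidant response elements. In adipose tissue, members of the family are known for clearing aldehydes formed from oxidized lipids.

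The adipocyte and osteoblast labels were checked against markers. By the brightest probe set, all 5 adipocyte markers with a probe set of their own were at least 2-fold higher in BMSC-Adipo, with *Adipoq* at 12.3 against 3.16, and 6 of 7 osteoblast markers were at least 2-fold higher in BMSC-Osteo. The exception was *Runx2*, at 10.4 in BMSC-Adipo and 10.2 in BMSC-Osteo (0.28). Macrophage markers were read as a sign of other marrow cells. Their linear levels, summed over 6 genes, came to 236 in BMSC-Adipo and 174 in BMSC-Osteo, and *Ptprc* and *Itgam* lay below the filter. *Lyz2*, the marker with the highest level, read 6.77 against 5.87 (0.90), and its other probe set, shared with *Lyz1*, differed by 0.86. Only *Cd68* passed the size rule by its brightest probe set, at 5.40 against 3.99 (1.41). The dimmest probe set of *Csf1r* by mean level went the other way, at 4.93 against 6.23 (-1.30), and the other *Csf1r* probe sets differed by -0.32 and -0.37. The sums were 95.2 and 99.2 for 5 endothelial markers, and 128 and 147 for 4 hepatocyte markers, cells known for high levels of many glutathione transferases. On the BMSC-Osteo array the endothelial marker *Kdr* read 5.71 and the hepatocyte marker *Ttr* 6.56, and without detection calls, levels up to about this range were not shown to lie above background. Neither the endothelial nor the hepatocyte list had a gene past the size rule, and the part of other cell types in the results below was not tested.

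Of the 10 glutathione transferases, all of which passed the brightness filter, 6 stood at least 2-fold higher in BMSC-Adipo and none in BMSC-Osteo. The background shares of such genes among all that passed the filter were 7.88% toward BMSC-Adipo and 6.68% toward BMSC-Osteo. The 6 genes were *Mgst1*, *Mgst2*, *Gsta4*, *Gstt1*, *Mgst3* and *Gstm2*, while *Gstm1*, *Gstm5*, *Gstp1* and *Gsto1* lay within 2-fold. The median difference of the 10 members was 1.86, against -0.03 for all genes past the filter. The members were chosen with earlier results of these arrays known, so the count and the median describe this list and do not test the family. Of the other glutathione transferases, 1 of 9 past the filter was at least 2-fold higher in BMSC-Adipo, with a median of 0.25. In pooled RNA, more cells that express a gene and more of its RNA per cell cannot be told apart. By probe set, 6 of 16 were at least 2-fold higher in BMSC-Adipo, and none in BMSC-Osteo, where the shares of all probe sets other than controls were 5.23% and 4.09%. A positive difference was found for 12 of the 16 and a negative one for 4. All 16 probe sets name 1 gene symbol only.

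**Figure D1:**
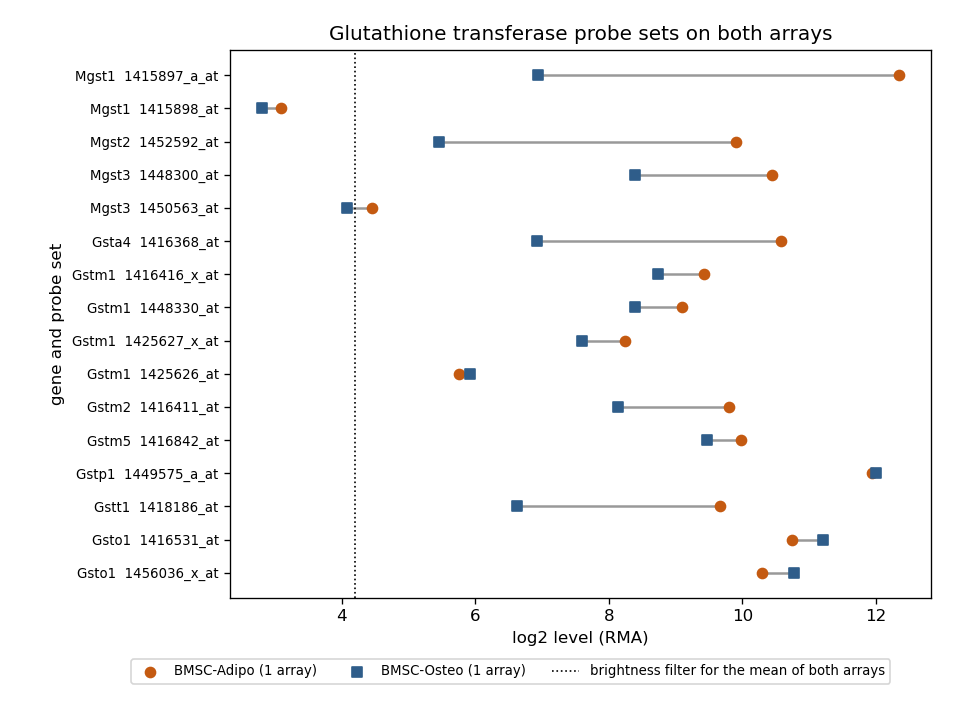
Log2 level of each of the 16 probe sets of the 10 genes (x axis) on the array of BMSC-Adipo (circles) and of BMSC-Osteo (squares), 1 array each and therefore without error bars. The dotted line is the brightness filter of 4.20, applied to the mean of both arrays, and the widest gap is that of *Mgst1* (12.4 against 6.93).

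All 3 membrane-bound members were on the side of BMSC-Adipo. *Mgst1*, an enzyme of the endoplasmic reticulum and outer mitochondrial membrane with transferase and peroxidase activity, had a log2 level of 12.4 in BMSC-Adipo and 6.93 in BMSC-Osteo by probe set 1415897_a_at. This difference of 5.42, or 42.9-fold, ranked 17 of 14497 genes toward BMSC-Adipo. The other *Mgst1* probe set, 1415898_at, read 3.08 and 2.81 and was the only member probe set below the filter, so the difference rests on a single probe set. *Mgst2*, whose human counterpart can make leukotriene C4, had levels of 9.91 and 5.46, a difference of 4.45 at rank 41, whose lower level was not shown to lie above background. *Mgst3*, known in humans as a glutathione-dependent peroxidase of lipid peroxides, had levels of 10.4 and 8.39 by probe set 1448300_at, a difference of 2.06. Its other probe set, 1450563_at, read 4.45 and 4.08, a difference of 0.38 close to the filter. For *Mgst1* and *Mgst3*, the dimmer probe set had the same sign and a difference below 2-fold.

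The alpha, mu and pi members were less alike. *Gsta4*, which conjugates 4-hydroxynonenal, a toxic aldehyde of lipid peroxidation, had a level of 10.6 in BMSC-Adipo and 6.93 in BMSC-Osteo. Its difference of 3.66 (12.6-fold) ranked 81. *Gstm2*, a mu class enzyme, had levels of 9.81 and 8.13, a difference of 1.67 (3.19-fold). *Gstm1*, the mu member with 4 probe sets, lay within 2-fold by each of them. Its probe sets 1416416_x_at, 1448330_at and 1425627_x_at differed by 0.69, 0.70 and 0.64, and the dimmest, 1425626_at, by -0.16 (5.75 against 5.92). The suffix x marks probe sets that may also bind other transcripts, and near-identical mu genes could share signal in these values. *Gstm5*, also of the mu class, had levels of 9.99 and 9.46, a difference of 0.52. *Gstp1*, the pi class enzyme with a broad range of substrates, was nearly equal, at 11.9 in BMSC-Adipo and 12.0 in BMSC-Osteo (-0.06). Its probe set is paired with 2 Ensembl genes in the annotation, and no probe set carried the symbol of its near copy *Gstp2*, so the values cannot be ascribed to *Gstp1* alone.

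*Gstt1*, a theta class enzyme that acts on small halogenated compounds, had levels of 9.66 and 6.63, a difference of 3.03 (8.19-fold) at rank 132. *Gsto1*, an omega class enzyme that reduces mixed disulfides and dehydroascorbate, was the member farthest toward BMSC-Osteo. Probe set 1416531_at read 10.7 in BMSC-Adipo and 11.2 in BMSC-Osteo (-0.46), and 1456036_x_at read 10.3 and 10.8 (-0.49). Both *Gsto1* probe sets lay within 2-fold. Among probe sets past the filter that read 1 gene in common, the differences between the lines had a pooled SD of 0.399. It reflects their probes and gives no replicate spread. Probe sets below the filter, such as the dimmer one of *Mgst1*, were left out of this value. The *Gstp1* difference was smaller than this value, and those of *Gsto1*, *Gstm5* and *Gstm1* exceeded it but stayed under 2-fold.

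**Figure D2:**
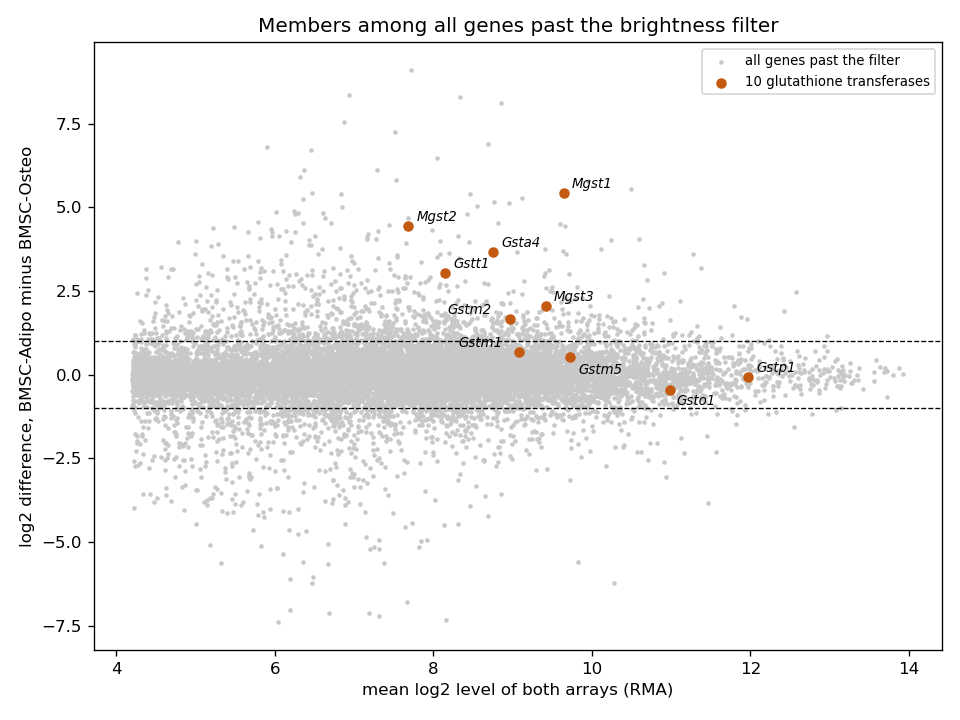
Log2 difference of each of the 14497 genes past the filter (y axis, BMSC-Adipo minus BMSC-Osteo) against its mean log2 level on both arrays (x axis), with the 10 glutathione transferases in orange and 2-fold marked by dashed lines. *Mgst1*, *Mgst2*, *Gsta4*, *Gstt1*, *Mgst3* and *Gstm2* lie above the upper line, and no member lies below the lower line.

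Promoter windows are shown for *Mgst1*, *Mgst2* and *Gstt1*, which with *Gsta4* were the 4 members farthest apart, and for *Gstp1*, the member nearest to equal levels. The sequences are from RefSeq on build GRCm38.p6 and run 5′ to 3′ on the gene's strand, from 250 bases before to 50 bases after an annotated start. They lie at chr6:138140277-138140576 (+ strand, 1 of 2 annotated starts), chr3:51660929-51661228 (+), chr10:75797682-75797981 (-) and chr19:4037863-4038162 (-). Capitals mark TGANNNNGC on either strand, a loose core of the antioxidant response element, where N is any base.
Mgst1: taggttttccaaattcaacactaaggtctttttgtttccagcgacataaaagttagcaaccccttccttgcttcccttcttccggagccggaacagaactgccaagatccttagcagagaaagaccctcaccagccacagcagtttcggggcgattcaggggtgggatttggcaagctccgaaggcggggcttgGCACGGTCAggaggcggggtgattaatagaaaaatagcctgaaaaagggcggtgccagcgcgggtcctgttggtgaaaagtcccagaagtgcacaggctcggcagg
Mgst2: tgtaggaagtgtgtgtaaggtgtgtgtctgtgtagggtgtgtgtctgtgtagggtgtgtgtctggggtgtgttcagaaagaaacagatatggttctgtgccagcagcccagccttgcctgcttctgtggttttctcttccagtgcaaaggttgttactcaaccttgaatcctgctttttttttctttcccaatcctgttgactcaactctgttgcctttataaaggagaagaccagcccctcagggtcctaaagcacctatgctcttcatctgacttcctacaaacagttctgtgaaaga
Gstt1: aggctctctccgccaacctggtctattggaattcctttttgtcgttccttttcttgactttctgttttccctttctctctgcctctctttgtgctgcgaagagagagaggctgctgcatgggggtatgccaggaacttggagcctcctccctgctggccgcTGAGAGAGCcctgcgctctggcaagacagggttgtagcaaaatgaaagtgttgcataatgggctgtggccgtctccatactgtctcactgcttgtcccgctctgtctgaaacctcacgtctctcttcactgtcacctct
Gstp1: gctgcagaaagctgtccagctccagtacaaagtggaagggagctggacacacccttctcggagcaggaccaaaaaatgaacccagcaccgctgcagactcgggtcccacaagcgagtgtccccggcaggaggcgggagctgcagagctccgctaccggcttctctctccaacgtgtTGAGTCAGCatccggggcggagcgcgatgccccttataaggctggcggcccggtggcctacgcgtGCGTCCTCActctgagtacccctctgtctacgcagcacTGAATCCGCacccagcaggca
The stricter core TGACNNNGC, every match of which is also a match of the looser one, was found in the printed *Mgst1* window on the opposite strand. The window of the other annotated *Mgst1* start, at chr6:138141337-138141636, held neither core. The windows of *Gstt1* and *Gstp1* had 1 and 3 matches of the looser core only, and that of *Mgst2* had none. Among 11 windows of 9 members in the table, which did not include *Gsta4*, 2 held the stricter core, the other being *Gstm5*, and 4 held the looser core. Of all 32851 windows in the table, 12.4% held the stricter and 41.3% the looser core on either strand. A match describes the letters of the window and is no evidence of binding.

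Among 14 other glutathione transferases with a probe set of their own, 9 passed the filter, with a median difference of 0.25. Beside background shares of 7.88% toward BMSC-Adipo and 6.68% toward BMSC-Osteo, 1 was at least 2-fold higher in BMSC-Adipo and none in BMSC-Osteo. That gene was *Gstt3*, at 8.03 against 5.52 (2.50), which is the neighbour of *Gstt1* on chromosome 10. Its lower level was not shown to lie above background. The remaining theta genes of this cluster, *Gstt4* (4.90 and 4.83) and *Gstt2* (3.97 and 4.12, below the filter), had nearly equal values, at levels not shown to lie above background. Of the 6 nearest protein-coding genes past the filter, 3 on each side, the 2 at least 2-fold apart were *Ddt* (1.19), a tautomerase gene, and *Ggt5* (1.09 by its brightest probe set), a glutathione conjugate enzyme taken up below. By the brightest probe set of each gene, the 6 ranged from -0.48 for *Mif*, also a tautomerase gene, to 1.19. The other *Ggt5* probe sets differed by 5.50 and 4.98, more than *Gstt1* and *Gstt3*, so this range depends on the probe set chosen. Chromosome 10 as a whole had a median difference of 0.24.

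The mu genes on chromosome 3 follow each other in the order *Gstm5*, *Gstm7*, *Gstm6*, *Gstm3*, *Gstm2*, *Gstm1* and *Gstm4*. *Gstm2* (1.67) stood between *Gstm3* (0.27) and *Gstm1* (0.69), and *Gstm4* differed by 0.82 (7.15 against 6.34). *Gstm2* was the only gene of these 7 past the size rule, and the 6 nearest such genes around the cluster ranged from -0.07 to 0.82. The levels of *Gstm7*, *Gstm6* and *Gstm3* were not shown to lie above background on either array, so their small differences are not informative. Nor was the lower level of *Gstm4* shown to lie above background. In the omega pair of chromosome 19, *Gsto2* (4.40 against 3.70) lay below the filter. Of the family's remaining enzymes, *Gstk1*, of the separate kappa class of mitochondria and peroxisomes, differed by -0.86, and *Gstz1*, which acts in tyrosine breakdown, by 0.62.

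**Figure D3:**
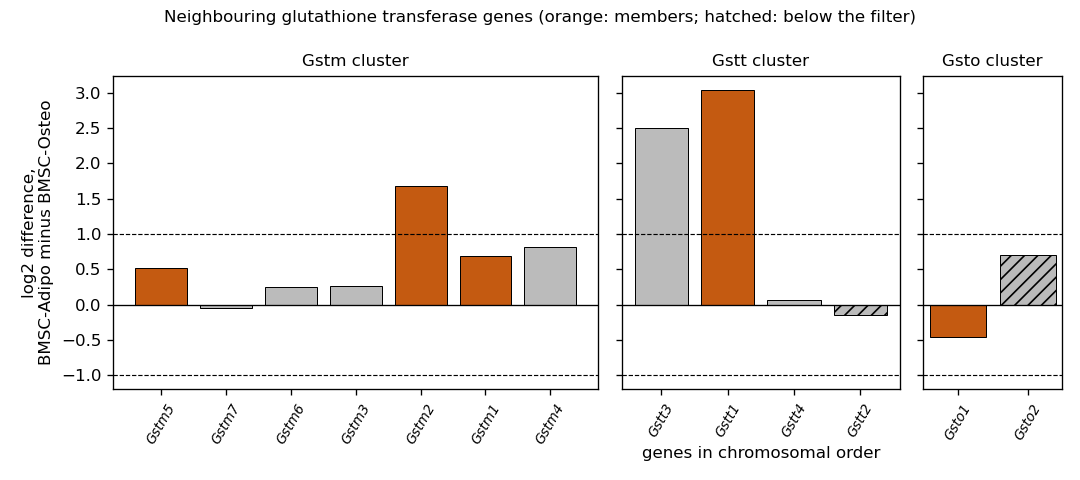
Log2 difference (y axis, BMSC-Adipo minus BMSC-Osteo, 1 array each) of the mu, theta and omega genes in chromosomal order, with members in orange, other family genes in grey and genes below the filter hatched. *Gstt1* (3.03) and its neighbour *Gstt3* (2.50) stand above the 2-fold line, and *Gstm2* (1.67) is the only mu gene above it.

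Genes that supply, recycle or use glutathione were described by 10 lists, which include the other transferases. Across these lists, 83 genes passed the filter, and the size rule was met by 15 toward BMSC-Adipo and by 9 toward BMSC-Osteo, against shares of 7.88% and 6.68% in all genes (14.6% in either direction), and the median was 0.00. In the MAPEG branch, *Ltc4s*, which makes leukotriene C4, had levels of 9.33 in BMSC-Adipo and 5.76 in BMSC-Osteo (3.57). Its lower level was not shown to lie above background. *Alox5ap*, which presents arachidonic acid to 5-lipoxygenase, differed by 0.98, just under 2-fold, and *Ptges*, a prostaglandin E synthase, by -0.67. The *Alox5ap* levels (4.99 against 4.01) were not shown to lie above background in either line.

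The list of glutathione breakdown and mercapturate steps, which trim glutathione conjugates after they form, had 13 genes past the filter, with 3 at least 2-fold higher in BMSC-Adipo, 4 in BMSC-Osteo and a median of 0.00. The background shares were the 7.88% and 6.68% given above. *Dpep1*, a dipeptidase that cleaves the glycine bond of these conjugates, had levels of 10.4 in BMSC-Adipo and 4.23 in BMSC-Osteo (6.13), and its other probe set differed by 5.47. *Acy3*, an aminoacylase that acts on mercapturic acids, had 7.29 and 4.08 (3.21). For both genes the level in BMSC-Osteo lay near the filter and was not shown to lie above background. *Ggt5*, a gamma-glutamyl transferase that converts leukotriene C4 to D4, differed by 1.09 by its brightest probe set, and by 5.50 and 4.98 by the others. *Chac1* (-3.15), an enzyme that breaks glutathione down within the cell, was at least 2-fold higher in BMSC-Osteo. So were *Ggct* (-1.84), *Oplah* (-1.01), which opens 5-oxoproline, and *Acy1* (-1.20), also an aminoacylase. The 6 genes within 2-fold were *Chac2* (0.69), *Lap3* (-0.29), *Ggt7* (-0.02), and *Ggt1*, *Ggt6* and *Cndp2*, whose values were equal on both arrays. Other *Ggct* probe sets differed by -0.25 and 0.05. The levels of *Ggct* by its brightest probe set (4.55 against 6.38) and of *Oplah* (4.88 against 5.90) were not shown to lie above background in either line. The same held for *Acy1* in BMSC-Adipo (6.06).

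Of 8 genes of glutathione synthesis and cystine supply, 6 had a negative difference, and the size rule was passed by 3 toward BMSC-Osteo and by 1 toward BMSC-Adipo. The background shares were 6.68% toward BMSC-Osteo and 7.88% toward BMSC-Adipo. *Cth*, which makes cysteine from cystathionine, had levels of 5.38 in BMSC-Adipo and 9.91 in BMSC-Osteo (-4.53). Its lower level was not shown to lie above background. Both subunits of the cystine transporter, *Slc7a11* (-1.56, with another probe set at -2.63) and *Slc3a2* (-1.28), were at least 2-fold higher in BMSC-Osteo. The *Slc7a11* levels, 4.10 against 5.66 and 2.88 against 5.52, were not shown to lie above background in either line. *Slc1a5*, a glutamine transporter, was higher in BMSC-Adipo (7.85 against 5.62, a difference of 2.24), although its other probe set differed by 0.48. The lower level of the first probe set and both levels of the other were not shown to lie above background. The synthesis enzymes *Gclc* (0.53), *Gclm* (-0.25) and *Gss* (-0.44) lay within 2-fold. The list's median was -0.35.

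Of the genes that keep glutathione reduced, *Gsr*, glutathione reductase, differed by 0.06. The NADPH producers *Idh1* (2.02) and *G6pdx* (1.20) were at least 2-fold higher in BMSC-Adipo, while *Idh2* had a negative difference within 2-fold (-0.74). *Me1* stood at the edge of the size rule, with -0.99 by its brightest probe set (9.45 against 10.4) and -1.29, past 2-fold toward BMSC-Osteo, by the other (9.07 against 10.4). Among 9 peroxidases, *Gpx8* (1.46), of the endoplasmic reticulum, passed toward BMSC-Adipo and *Gpx3* (-3.31), the secreted form, toward BMSC-Osteo. *Prdx6* (-0.91) and *Gpx1* (-0.70) had negative differences within 2-fold. *Glrx* (2.10), which removes glutathione from proteins, and *Hagh* (1.25), which frees glutathione in the breakdown of methylglyoxal, were the 2 of 6 glutaredoxins and glyoxalases past the size rule, both toward BMSC-Adipo. Of 6 exporters past the filter, only *Abcc1* (-1.22), which pumps out glutathione conjugates and leukotriene C4, was at least 2-fold apart, and it was higher in BMSC-Osteo. For each list of this paragraph, the background shares were 7.88% toward BMSC-Adipo and 6.68% toward BMSC-Osteo.

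None of 10 NRF2 regulators and reference targets was at least 2-fold apart, where 14.6% of all genes past the filter were. In so short a list, a count of none lies near that share. *Hmox1* (0.88) and *Nfe2l2*, which encodes NRF2 (-0.63), differed the most, and the median was -0.24. *Nqo1* had levels of 6.24 and 6.25, which were not shown to lie above background, so a difference could be missed. Past the filter were 12 enzymes of reactive aldehydes and epoxides. By the brightest probe set, 4 were at least 2-fold higher in BMSC-Adipo and none in BMSC-Osteo. These were the epoxide hydrolases *Ephx1* (12.3 against 9.03, a difference of 3.28) and *Ephx2* (2.22), the carbonyl reductase *Cbr3* (1.24) and the aldehyde dehydrogenase *Aldh3a1* (1.12). The BMSC-Osteo levels of *Ephx2* (5.42) and *Aldh3a1* (6.06) were not shown to lie above background. The background shares were 7.88% toward BMSC-Adipo and 6.68% toward BMSC-Osteo. The dimmest *Aldh1a3* probe set differed by -1.41 (2.75 against 4.15), at levels not shown to lie above background, and the brightest by -0.86.

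**Figure D4:**
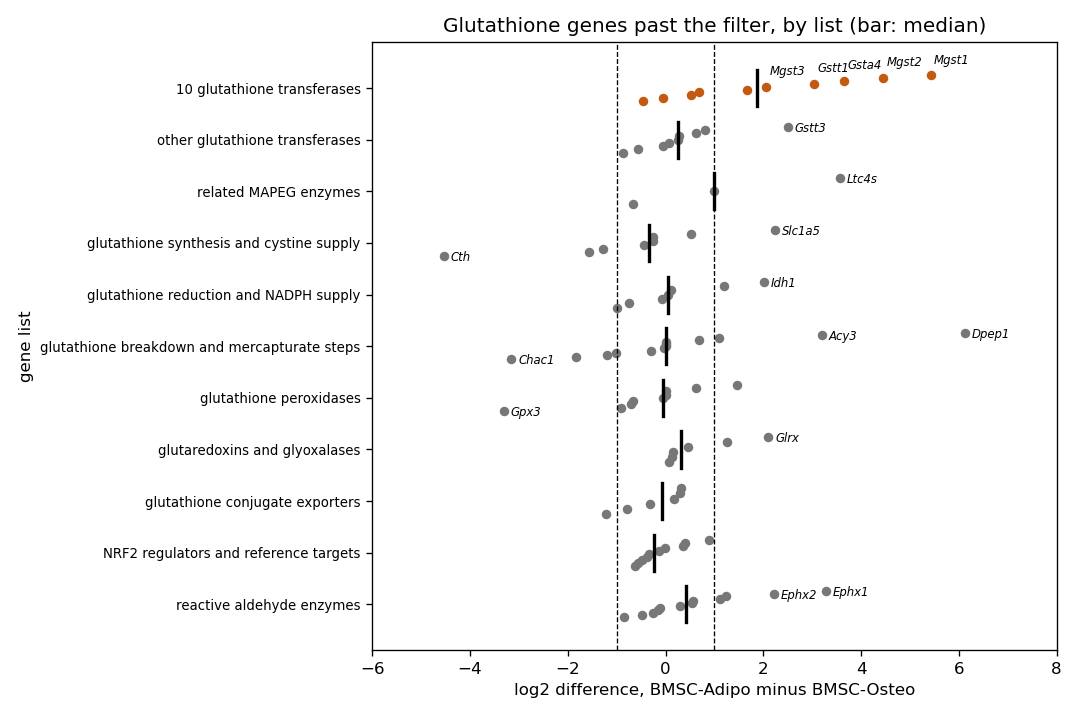
Log2 difference (x axis, BMSC-Adipo minus BMSC-Osteo, 1 array each) of every gene past the filter in the 10 members (orange) and in 10 lists of glutathione genes (grey), with vertical bars at the list medians and dashed lines at 2-fold. The bar of the members stands at 1.86 and that of synthesis and cystine supply at -0.35, and *Dpep1* (6.13) and *Cth* (-4.53) are the outermost points.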

How the data were processed

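Total RNA of BMSC-Adipo and BMSC-Osteo was isolated at day 0, 8 ug was labelled, and 1 array was hybridised per line. The authors deposited log2 levels per probe set, made by RMA with the oligo package (version not given in the sources used here), which corrects background, normalizes between the arrays and summarizes probes. The deposited table also holds the authors' log2 fold change, which was not used. No genome build or detection call is given in the files, and 2096 probe sets had equal values on both arrays.

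Control probe sets (64) were left out, 38190 probe sets named 1 gene, 1479 several and 5368 none. Each gene took its probe set with the highest mean. All 10 members matched RefSeq genes of GRCm38.p6 by Entrez ID, which gave chromosomes and neighbours. The members and gene lists were chosen with earlier results of these arrays known. Named were all members, up to 4 genes of each other list with the largest absolute difference, and genes past the size rule where 5 or fewer passed in a direction. *Nqo1*, *Gsr*, *Gclc*, *Gclm*, *Gss*, the breakdown genes within 2-fold, the cluster genes and their neighbours were added once the values had been seen. Python 3.11.15, numpy 2.4.6, pandas 2.3.3, statsmodels 0.14.6 and matplotlib 3.10.9 were used. Alternatives are given in the closing section.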

Additional observations from a re-analysis of the deposited data

How the results depend on the processing

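The count of 6 members at least 2-fold higher in BMSC-Adipo, with none in BMSC-Osteo, was the same under 9 alternatives: averaged probe sets per gene, the filter removed or raised to the 50th percentile, the median difference, a loess curve on brightness (span 0.3) or chromosome medians (added after seeing the data) subtracted, an offset of 32 on the linear scale, the series matrix, and shared probe sets allowed. It was 7 with a 1.5-fold and 5 with a 4-fold rule, where 30.6% and 4.26% of all genes were apart. Some of the 9 alternatives could not change this count. The series matrix held the same values, no member probe set was shared, and all 10 members passed the filter at either percentile. The members' median became 1.44 with the mean of probe sets and otherwise lay between 1.76 and 1.89. The count of other glutathione genes at least 2-fold apart was 24, between 20 and 24 under the same 9 alternatives, 40 with the 1.5-fold rule and 12 with the 4-fold rule. Single members' differences shifted by more than 0.399 for *Mgst1* (2.85 with the mean of probe sets), *Mgst3* (1.22 with that mean), *Mgst2* (3.71 with the offset), and in the dimmer probe sets of *Mgst1*, *Mgst3* and *Gstm1*. Protein identity between members was planned and not run, since no protein table was used here. No paired analysis was possible because each line has 1 array. Without detection calls, a low level cannot be told from background, so differences against low levels may be understated.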
